A study of Rattus norvegicus with 24 samples.

Results

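The regions described here are all 5327 regions that the study's authors listed as differing with age in rat sperm, out of 5357 regions in their lists for age (5327) and for exposure (30). For each region the change is the methylation level of control animals at postnatal day (PND) 120 minus that of control animals at PND65, in percentage points, and every listed region was kept. The control PND120 group held 6 male Wistar rats and the control PND65 group held another 6, all born to dams fed vehicle (tocopherol-stripped corn oil) from pregnancy day 8 to PND21. The same regions were also measured in 6 BDE-47 PND120 and 6 BDE-47 PND65 males, whose dams received 0.2 mg/kg per day of BDE-47, a brominated flame retardant, over the same days. Sperm from the cauda epididymis was collected by swim-up, spun through a density gradient meant to remove somatic cells, and assayed by reduced representation bisulfite sequencing (RRBS), which reads cytosine methylation in CpG-rich fragments. Each litter gave 1 pup at each age, so animals of both ages can be littermates, and the lists do not say which.

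In mammals DNA methylation sits mainly on the cytosine of CpG dinucleotides, and sperm DNA is highly methylated outside CpG islands, the CpG-dense stretches that cover many promoters and developmental genes and are mostly unmethylated. The pattern is erased in primordial germ cells and laid down again by de novo DNA methyltransferases before birth in the male germ line. Later divisions of spermatogonia copy it through maintenance methylation.

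The lists give 1 level per group and region, the authors' own value, with no value for single animals. No spread between animals and no depth per library is known, so no difference below has a replicate test. Levels are methylation percentages, and regions are not replicates of a condition: all share the same 24 animals. Control PND65 was the lowest of the 4 groups at 4943 regions (92.8%), and control PND120 was the highest at 4701 (88.2%). The list was chosen for change with age, and 99.2% of its regions gained in controls. Listing by change makes the control groups differ at nearly every region. The list holds gains and losses, so listing alone does not set which control group is higher or where the BDE-47 groups lie. What sets this order was not tested. The class under 2%, given next, is set by the control PND65 level itself. At regions under 2% in control PND65 animals, the median level over regions was 10.2% in control PND120 and 0.485% in control PND65 sperm, against 5.91% in BDE-47 PND120 and 6.36% in BDE-47 PND65 sperm. With 1 value per group, age, a difference between the libraries of a group and the way a group was processed cannot be told apart. Of germline genes whose promoters are methylated in somatic cells and unmethylated in sperm, used here to check the label, 3 had a listed region: Tdrd6, a tudor protein of germ granules, stood at 7.50% in control PND120 and 0.328% in control PND65 sperm, while the regions of Rbm46 and Zfp42 were over 50 kb long and stood above 25% at both ages.

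Most regions lay in or beside genes that begin in CpG-rich sequence, and a few such starts show what was measured. RefSeq promoters of rat assembly GRCr8 (250 bases before to 50 after a gene's start) were matched by current symbol, gene number or older symbol. Of the 3687 listed genes that are protein-coding in RefSeq, 2971 (80.6%) had one. Their promoters held a median of 23 CpGs, against 12 over all 19005 protein-coding promoters, and 87.1% held at least 10, against 55.0% of all. RRBS selects CpG-rich fragments, and genes covered by the assay but not listed were not used here. The 4 promoters shown belong to genes with a region at most 300 bp long that ended within 250 bp upstream of the gene. They are the largest such gains under 2% (2 genes), at 2 to 10% and at 10 to 30% in control PND65 sperm, with no such gain at 30% or more. Capitals mark each CG, which reads the same on both strands and occurred at least once in 95.2% of all 19005 promoters. The regions have rn6 coordinates and the sequences are GRCr8, so the place of a region within its sequence is not given.
Prr14 promoter, chr1:191514178-191514477, + strand: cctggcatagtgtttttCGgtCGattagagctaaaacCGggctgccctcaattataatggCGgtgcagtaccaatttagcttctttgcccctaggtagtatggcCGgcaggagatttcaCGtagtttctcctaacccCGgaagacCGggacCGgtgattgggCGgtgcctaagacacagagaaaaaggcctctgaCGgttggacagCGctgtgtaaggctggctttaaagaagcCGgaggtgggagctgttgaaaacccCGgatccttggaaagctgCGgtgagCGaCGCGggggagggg
Yaf2 promoter, chr7:126378735-126379034, - strand: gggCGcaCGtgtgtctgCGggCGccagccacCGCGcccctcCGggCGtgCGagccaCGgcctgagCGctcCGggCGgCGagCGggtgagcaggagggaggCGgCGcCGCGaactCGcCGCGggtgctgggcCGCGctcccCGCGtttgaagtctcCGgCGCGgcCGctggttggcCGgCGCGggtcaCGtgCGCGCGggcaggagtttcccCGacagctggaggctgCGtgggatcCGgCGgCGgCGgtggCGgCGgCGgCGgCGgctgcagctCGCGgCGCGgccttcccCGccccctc
Tuba1b promoter, chr7:131972538-131972837, - strand: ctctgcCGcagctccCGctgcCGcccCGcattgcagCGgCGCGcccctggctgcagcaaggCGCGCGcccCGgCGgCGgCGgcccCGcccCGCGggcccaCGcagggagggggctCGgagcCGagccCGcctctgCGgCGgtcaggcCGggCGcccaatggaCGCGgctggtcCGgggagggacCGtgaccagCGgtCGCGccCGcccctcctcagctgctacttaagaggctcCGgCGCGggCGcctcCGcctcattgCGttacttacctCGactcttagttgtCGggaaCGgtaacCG
Usp15 promoter, chr7:60734050-60734349, - strand: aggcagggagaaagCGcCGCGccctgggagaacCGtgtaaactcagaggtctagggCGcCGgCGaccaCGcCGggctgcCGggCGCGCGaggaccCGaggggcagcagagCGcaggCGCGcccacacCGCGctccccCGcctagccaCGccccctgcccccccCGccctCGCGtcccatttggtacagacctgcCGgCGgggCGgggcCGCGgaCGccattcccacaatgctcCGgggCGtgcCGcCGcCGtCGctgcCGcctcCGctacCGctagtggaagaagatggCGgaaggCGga

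Prr14 encodes a protein that ties heterochromatin to the nuclear lamina. Its promoter held 18 CGs, and the 3-CpG region 64 bp upstream stood at 18.2% in control PND120 and 0.477% in control PND65 sperm. Yaf2, a subunit of Polycomb complexes, had 53 CGs and a region at 16.9% in control PND120 and 0.496% in control PND65 sperm. Tuba1b, an alpha-tubulin, had 43 CGs and stood at 20.3% in control PND120 and 3.48% in control PND65 sperm. Usp15, a deubiquitinase, had 41 CGs and stood at 21.9% in control PND120 and 10.3% in control PND65 sperm. The 4 regions were chosen as largest gains, so a higher level in control PND120 than in control PND65 sperm follows from the choice. The BDE-47 groups were at 8.66% (PND120) and 9.38% (PND65) for Prr14 and at 26.2% (PND120) and 24.7% (PND65) for Yaf2, so at Yaf2 both were above both control groups.

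Over all regions 5287 gained methylation, which is 99.2% of the list, and 40 lost it (0.751%). The median change was 9.30 points, with quartiles of 7.57 and 11.5 points. A gain of at least 10 points was reached by 2186 regions (41%) and a gain of at least 20 points by 39 (0.732%). The 10th percentile of gains was 6.49 points and the 90th was 13.7 points. Their low end is bounded by how the list was made, as 99.8% of regions changed by 5 points or more. By chromosome the median change ran from 8.98 points on chromosome 20 to 10.3 points on chromosome 11 among the 20 autosomes, and it was 8.92 points over the 42 regions of chromosome X.

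The median change, in points, was largest where control PND65 sperm was least methylated. Regions were split by that level into under 2% (3001 regions), 2 to 10% (1165), 10 to 30% (598), 30 to 70% (504) and at least 70% (59). The median change fell along this order, at 9.63, 9.28, 8.69, 7.79 and 6.92 points. The share of regions that gained at least 10 points was 44.6%, 41.0%, 36.5%, 27.8% and 20.3% in the same order. Across the 5327 regions Spearman's correlation between change and PND65 level was -0.172, a description only, because the PND65 level is part of both measures and all regions come from the same libraries. Within a class the rank correlation was -0.014, -0.079, -0.076, -0.027 and 0.141 from the lowest to the highest class. This order depended on how regions were classed and which were kept. Among regions that changed by at least 7 points the medians were 10.0, 9.95, 9.98, 9.48 and 8.28 points, and the rank correlation was -0.045. Classed instead by the level in BDE-47 PND65 sperm, which is not part of the change, the medians were 11.3, 9.15, 10.3, 8.17 and 7.73 points from the lowest to the highest class. In regions of at most 1 kb the few at 30 to 70% had a median of 12.3 points. The 36 regions at exactly 0 in control PND65 sperm had a median change of 10.1 points.

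**Figure D1:**
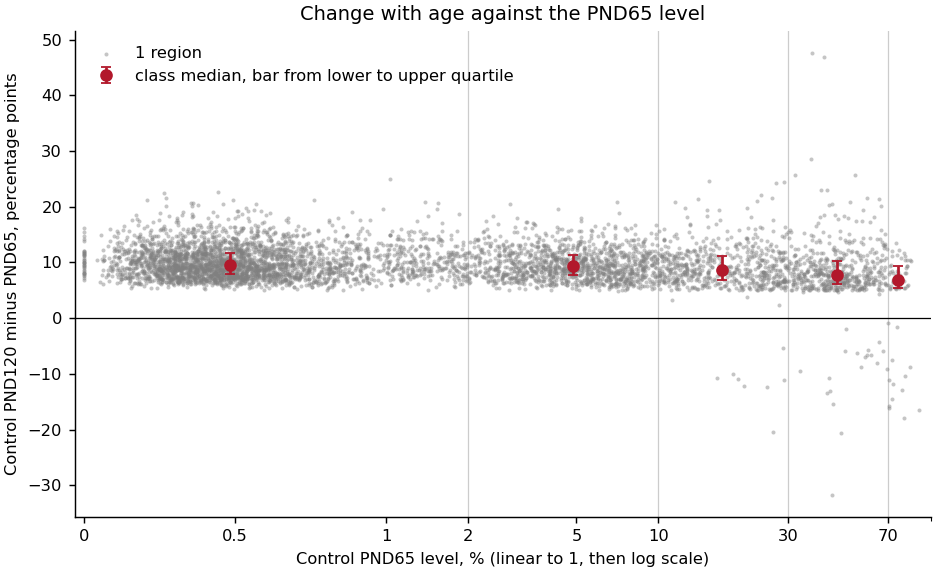
Change in percentage points (control PND120 minus control PND65) of each of the 5327 regions against its control PND65 level in percent, with the median and quartiles of 5 level classes in red. Class medians decline from 9.63 to 6.92 points, and the 40 losses lie at PND65 levels of 16.4% or more.

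As a share of what was left to methylate, the order ran the other way. Dividing the change by the unmethylated share at PND65 gave medians of 9.69%, 9.82%, 10.5%, 14.6% and 29.5% from the lowest to the highest class. Gains of at least 20 points followed neither order, at 0.533%, 0.172%, 1.34%, 2.58% and 0% of regions from the lowest to the highest class. Of the 4166 regions under 10%, 0 lost methylation, against 8 of 598 at 10 to 30%, 20 of 504 at 30 to 70% and 12 of 59 (20.3%) at 70% or more. A region under 5% at PND65 cannot lose 5 points, which holds for 3606 of the 4166, so the 0 there follows largely from the floor and the listing.

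Among the 3001 regions under 2% those with a larger gain also stood higher in both BDE-47 groups, which share no animals with the change. Over 4 equal bins of gain, from the lowest to the highest, the median BDE-47 PND65 level was 4.78%, 5.86%, 7.01% and 8.78%, while the median control PND65 level stayed between 0.468% and 0.501%. The rank correlation between gain and BDE-47 PND65 level was 0.619 over the 3001 regions, which share sequence and CpG number between the groups. As control PND65 sperm was near 0 there, the gain was nearly the control PND120 level itself. That level had a rank correlation of 0.637 with the BDE-47 PND65 level. In the higher classes, from 2 to 10% upward, the rank correlation with the gain was 0.295, 0.064, 0.074 and 0.070. At 30% or more the groups lay closer together: the 30 to 70% class had medians of 53.6% in control PND120 and 45.2% in control PND65 sperm, and of 50.8% in BDE-47 PND120 and 48.8% in BDE-47 PND65 sperm.

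**Figure D2:**
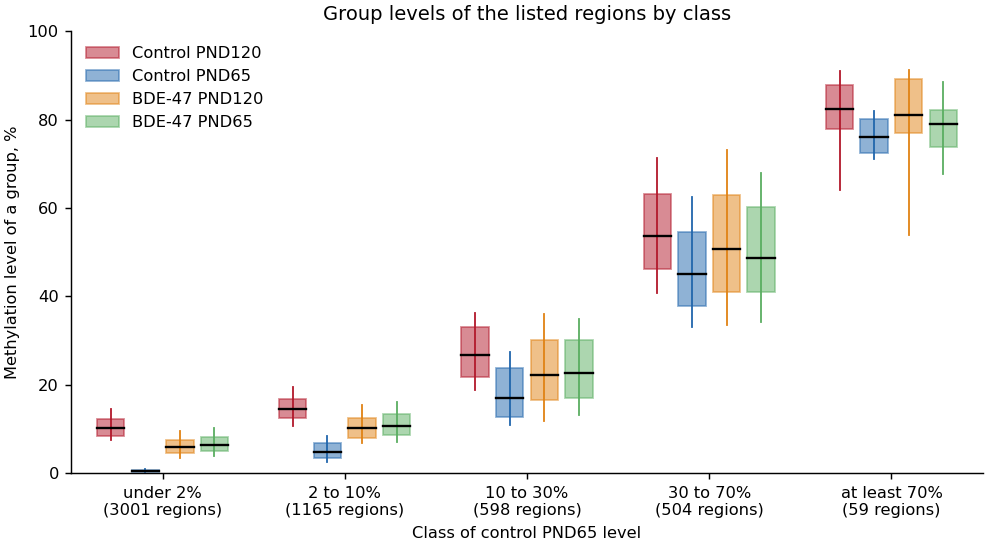
Methylation level in percent of control PND120, control PND65, BDE-47 PND120 and BDE-47 PND65 sperm in each class of control PND65 level. Boxes run from the lower to the upper quartile over regions, black lines are medians and thin lines run from the 10th to the 90th percentile; control PND65 is the lowest median in every class (0.485% under 2%, 76.0% at 70% or more).

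At the top of the class under 2% stood genes of several functions, each over 3 to 5 CpGs. Tmem231, a transition-zone protein of cilia, had the largest gain, 25.0 points, at chromosome 19 from 44158482 to 44164086 (rn6): 26.1% in control PND120 and 1.03% in control PND65 sperm over 3 CpGs. Cyp26b1, the enzyme that degrades retinoic acid and in mouse keeps fetal male germ cells out of meiosis, stood at 23.1% in control PND120 and 0.443% in control PND65 sperm. Ier2, an immediate early gene, had 22.8% in control PND120 and 0.266% in control PND65 sperm. Those 3 regions were above 20% in control PND120 sperm and at most 1.03% in control PND65 sperm. Cmpk1, a pyrimidine nucleotide kinase, had 21.9% in control PND120 and 0.273% in control PND65 sperm. The next 4 were Ints6 (Integrator complex), H2afy2 (the histone variant macroH2A2), Id2 (an inhibitor of bHLH factors) and E2f3 (a cell-cycle transcription factor), with gains of 20.6 to 21.3 points. All 8 had 3 CpGs except Id2 with 5. At H2afy2 control PND120 sperm had 22.0% and control PND65 sperm 0.761%, while BDE-47 sperm had 0 at PND120 and 0.493% at PND65, so control PND120 alone was high. At Ints6 both BDE-47 groups (25.2% at PND120 and 24.0% at PND65) were above control PND120 (21.5%), and control PND65 alone was low, at 0.208%.

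In the class of 2 to 10% the largest gain was at Ovol2, a zinc-finger repressor of epithelial cells, with 28.0% in control PND120 and 7.05% in control PND65 sperm. Cox5a, a subunit of cytochrome c oxidase, followed with 23.4% in control PND120 and 2.85% in control PND65 sperm. Zfp212, a zinc-finger protein, had 23.9% in control PND120 and 4.29% in control PND65 sperm. Reep1 (endoplasmic reticulum shaping), Noct (the clock-regulated Nocturnin), Slitrk5 (a synaptic membrane protein), Asic5 (an acid-sensing channel relative) and Clk2 (a kinase of splicing factors) gained 17.4 to 18.8 points. The Asic5 region spans 168923 bp with 4 CpGs, and BDE-47 sperm stood at 39.3% (PND120) and 39.2% (PND65) there, above control PND120 (23.2%). A region of that length covers sequence well beyond the gene named, and its level rests on the few CpGs read.

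In the class of 10 to 30% a region of Acp5, the tartrate-resistant acid phosphatase, had 53.3% in control PND120 and 28.9% in control PND65 sperm. Zc3h4, a zinc-finger protein that limits transcription of noncoding RNA, had 51.3% in control PND120 and 27.0% in control PND65 sperm. These regions of Acp5 and Zc3h4 passed 50% at PND120, where the upper quartile of the class was 33.2%. Tpm2 (beta-tropomyosin), Dapk3 (a death-associated kinase), Nup107 (a nuclear pore subunit), Wnt10b (a Wnt ligand) and Ribc1 gained 20.8 to 22.2 points. The Dapk3 region rested on 23 CpGs, and it was the only one of these 7 regions with more than 7. The Ribc1 region spans 566775 bp of chromosome X with 4 CpGs, and the Nup107 region 65897 bp with 3 CpGs. Their levels rest on those few CpGs and need not be those of the genes named.

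The largest changes of all lay at 30 to 70%. Lrrc8e, which helps form the anion channels that open when cells swell, stood at 84.1% in control PND120 and 36.6% in control PND65 sperm, a change of 47.5 points over 14 CpGs. Mapk13, the p38 delta kinase, had 87.6% in control PND120 and 40.7% in control PND65 sperm over 3 CpGs downstream of the gene. The next were Adat3 (a subunit of the tRNA adenosine deaminase), Mex3a (an RNA-binding protein), Setd1b (a histone H3 lysine methyltransferase), Tsc22d3 (a glucocorticoid-induced leucine zipper protein), Fbxo41 (an F-box protein) and Exosc4 (an exosome subunit), with gains of 20.9 to 28.6 points. At 70% or more the top 8 were Exd2, Dcps, Setd1b again, Rarg, Wbscr28, Cyhr1, Spry1 and Efna2, with gains of 10.5 to 13.5 points. The Setd1b region there had 33 CpGs and stood at 91.3% in control PND120 and 79.7% in control PND65 sperm. Rarg, a retinoic acid receptor, had 86.9% in control PND120 and 75.5% in control PND65 sperm. Spry1, an inhibitor of receptor tyrosine kinase signalling, had 92.7% in control PND120 and 82.2% in control PND65 sperm.

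Whether BDE-47 sperm also gained with age differed between low and high classes, among the largest gains and over whole classes. Of the 39 gains of at least 20 points, 13 lay at 30 to 70%, and all 13 rose by at least 10 points in BDE-47 sperm as well (median change 20.0 points). Of the 16 such gains under 2%, 0 rose by even 5 points in BDE-47 sperm (median change -0.505 points). That is close to the share of the whole class under 2%, where 5 of 3001 regions (0.167%) rose by at least 5 points. At 30 to 70% it was 89 of all 504 regions (17.7%). From the lowest to the highest class the BDE-47 change had the sign of the control change at 28.2%, 26.8%, 41.6%, 63.1% and 84.7% of regions. Over all 5327 regions it was 33.3%. The rank correlation between the changes, which come from different animals, was -0.056, -0.103, 0.146, 0.426 and 0.749 in the same order. It was -0.022 over all regions, and the highest class has only 59 regions. The list was chosen for change with age, so these values describe it and no other regions.

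The median change was larger in regions with fewer CpGs. The median change was 10.2 points at 3 CpGs (1979 regions), 9.25 at 4 to 5 (1756), 8.85 at 6 to 9 (1028), 7.84 at 10 to 19 (464) and 7.25 at 20 or more (100). The share with a gain of at least 10 points was 52.3%, 40.4%, 33.2%, 18.1% and 17.0% in that order, while gains of at least 20 points made up 1.01%, 0.399%, 0.292%, 0.862% and 5.00%. Regions with many CpGs also stood higher at PND65: the median control PND65 level was 0.613% at 3 CpGs and 36.7% at 20 or more. Within the 4166 regions under 10% at PND65 the medians still fell from 3 to 19 CpGs, at 10.2, 9.32, 8.90 and 8.46 points, and only 6 regions had 20 or more. The rank correlation between change and number of CpGs was -0.277 over all regions, and -0.219 both under 2% and at 2 to 10%. The 10th percentile of gains was also larger at few CpGs, at 7.01 points at 3 CpGs and 5.38 points at 20 or more. The single smallest gain was 2.44 points at 3 CpGs and 5.01 points at 20 or more. Regions entered the list through a test on reads, and whether that entry sets this order was not tested.

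The top 10% of each class was richer in 3-CpG regions than its class. Under 2%, 198 of 301 top regions (65.8%) had 3 CpGs, against 45.3% of the class. At 2 to 10% it was 58.1% of the top against 34.0% of the class, at 10 to 30% 41.7% against 26.9%, and at 30 to 70% 23.5% against 11.5%. None of the 6 top regions at 70% or more had 3.

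Length had little relation to the change over all regions, with a rank correlation of 0.033, but its relation differed by level class. The median change was 9.02 points under 100 bp (2038 regions), 9.89 at 100 bp to 1 kb (1828), 9.42 at 1 to 10 kb (518), 8.75 at 10 to 100 kb (786) and 8.16 at 100 kb or more (157). Regions of higher level were longer: the median length was 91 bp under 2%, 169 bp at 2 to 10% and 26334 bp at 30 to 70%. Within regions under 10% the medians were 9.07, 9.95, 9.95, 10.6 and 10.2 points from the shortest to the longest class, the last over 18 regions. Within regions at 30% or more they were 8.22 points at 1 to 10 kb, 7.62 at 10 to 100 kb and 7.47 at 100 kb or more. The rank correlation was 0.245 under 2%, 0.233 at 2 to 10% and -0.163 at 30 to 70%. Longer regions held more CpGs (rank correlation 0.562 between length and CpG number), and among regions under 10% the change was larger in longer regions and smaller in regions with more CpGs.

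**Figure D3:**
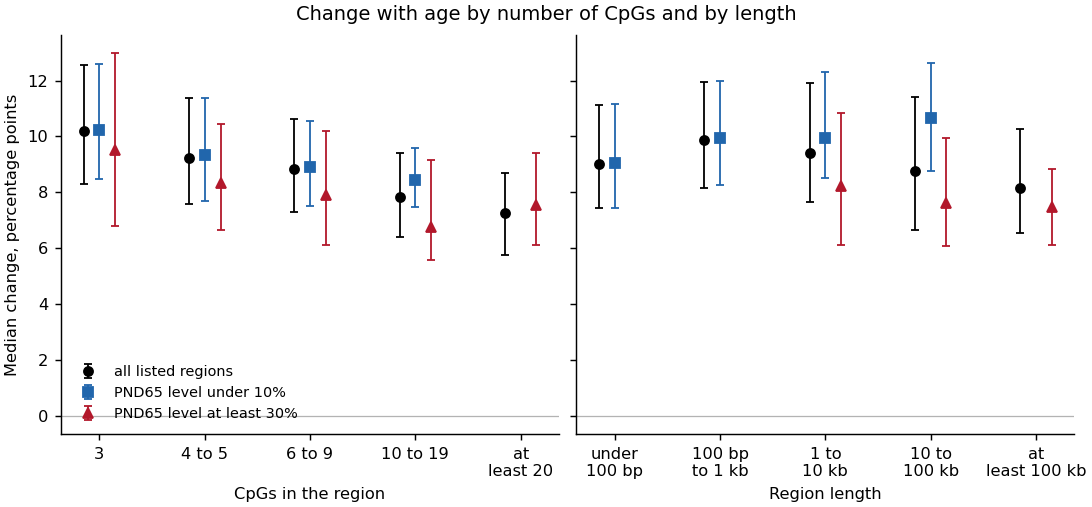
Median change in percentage points (control PND120 minus control PND65), with bars from the lower to the upper quartile, by number of CpGs (left) and region length (right) for all regions, for regions under 10% and for regions at 30% or more in control PND65 sperm. Only groups of at least 50 regions are drawn; medians fall from 10.2 points at 3 CpGs to 7.25 points at 20 or more.

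The place of a region relative to its nearest gene went with small differences in change. The authors' annotation put 4246 regions in a gene body, where the median change was 9.28 points. Within 1 kb upstream, the usual place of a promoter, 597 regions had a median of 9.37 points and stood at 11.9% in control PND120 and 0.671% in control PND65 sperm. The medians were 9.90 points 1 to 10 kb upstream (168 regions), 8.92 points 10 kb or more upstream (136), 8.68 points within 1 kb downstream (24), 9.68 points 1 to 10 kb downstream (72) and 9.11 points 10 kb or more downstream (84). The share with a gain of at least 10 points ran from 35.3% (10 kb or more upstream) to 48.2% (1 to 10 kb upstream), against 41% of all regions. Losses made up 9 of the 220 regions at least 10 kb from a gene (4.09%) and 24 of the 4246 in gene bodies (0.565%). Among regions under 10% at PND65 the medians for gene bodies, under 1 kb, 1 to 10 kb and 10 kb or more were 9.54, 9.48, 9.85 and 9.36 points.

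Many regions lay close together, yet neighbours were hardly more alike in size of change than distant regions. With gaps of up to 10 kb, 2560 regions (48.1%) fell into 1057 clusters of 2 or more, 299 of them with at least 3 regions, and 2767 stood alone. The median change was 9.22 points for regions alone, 9.40 in pairs and 9.38 in clusters of 3 or more. Of 1223 neighbouring pairs within 1 kb, 1219 moved the same way, in a list where 99.2% of regions gained. The rank correlation between the changes of neighbours was 0.037 up to 100 bp (564 pairs), 0.103 at 100 bp to 1 kb (659), 0.053 at 1 to 10 kb (280), 0.002 at 10 to 100 kb (1025) and -0.013 beyond (2778). The median difference between neighbours was 2.54 points within 1 kb and 2.68 points beyond 100 kb. Levels behaved likewise: the rank correlation between the control PND65 levels of neighbours was 0.044 up to 100 bp and 0.030 beyond 100 kb. In 110 of the 1223 pairs within 1 kb a region under 2% lay beside one at 30% or more in control PND65 sperm. Beyond 100 kb this held for 314 of 2778 pairs, so it was not particular to close neighbours. No listed regions overlap, so neighbours share no CpG. Pairs within 1 kb named the same gene in 78.6% of cases.

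Nr2e1 (the orphan nuclear receptor Tlx of neural stem cells), Ptch1 (the receptor for Hedgehog ligands) and Zbtb7a (a BTB zinc-finger repressor) had the most regions of any gene, 7 each. All of them gained, in a list where 99.2% of regions gained. The Nr2e1 regions run from 47297347 to 47315974 on chromosome 20 (rn6). They stood between 6.17% and 15.8% in control PND120 and between 0.591% and 4.60% in control PND65 sperm. The smallest change, 5.25 points, lay in a gene-body region, and the next region along the chromosome had the largest, 13.7 points. The Ptch1 regions, from 1084674 to 1093530 on chromosome 17, stood between 11.2% and 16.1% in control PND120 and between 0.314% and 6.63% in control PND65 sperm. Its largest change, 14.2 points, lay 7534 bp upstream and its smallest, 7.67 points, inside the gene. At Zbtb7a, from 11443859 to 11451558 on chromosome 7, 6 regions stood between 6.61% and 19.4% in control PND120 and between 0.395% and 5.57% in control PND65 sperm. The seventh, 4540 bp long and beginning 897 bp upstream, stood at 36.4% in control PND120 and 28.9% in control PND65 sperm, a change of 7.46 points.

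**Figure D4:**
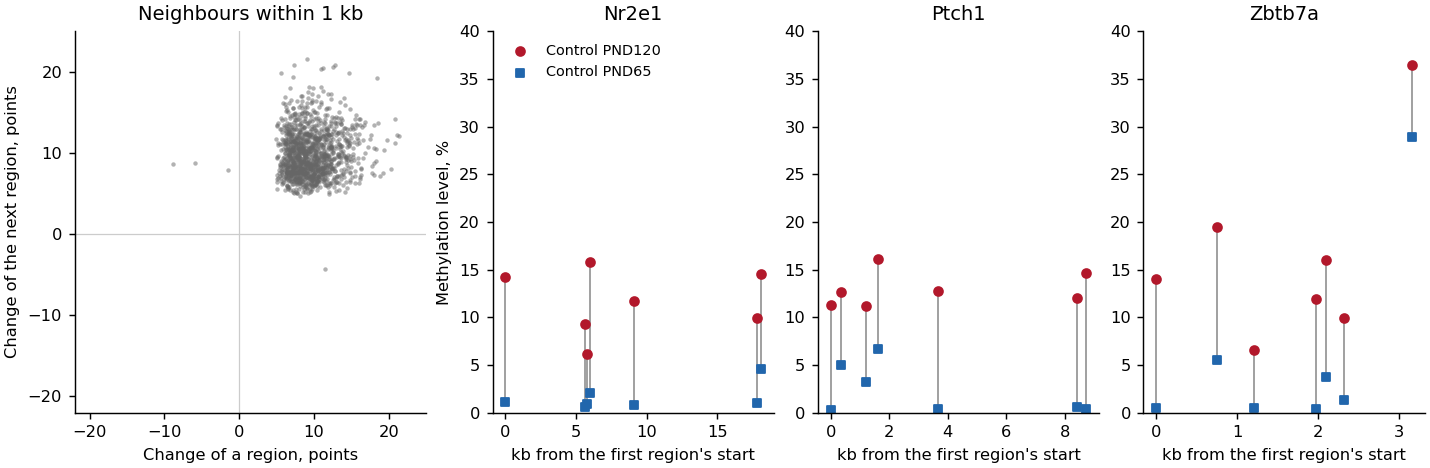
Left, change of a region against change of the next region on the chromosome for the 1223 pairs within 1 kb, in percentage points; right, level in percent of the 7 regions of Nr2e1, Ptch1 and Zbtb7a in control PND120 (red circles) and control PND65 (blue squares) sperm by distance from the first region's start. The cloud shows little slope, with a rank correlation of 0.070. Every region of the 3 genes is higher in control PND120 than in control PND65 sperm, as are 99.2% of all listed regions.

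The cluster with the most regions, 8, spans 94.3 kb on chromosome 12 over Actb (beta-actin), Fbxl18 (an F-box protein) and Tnrc18, with changes of 5.00 to 15.2 points and control PND65 levels of 0.173% to 49.2%. A short Actb region of 44 bp stood at 8.11% in control PND120 and 0.173% in control PND65 sperm, while the next Actb region, 11877 bp long, stood at 41.1% in control PND120 and 36.1% in control PND65 sperm. A cluster of 7 over Fbxo41 and Egr4, a zinc-finger factor needed for sperm production in mouse, had changes of 7.31 to 21.4 points. There the 5 regions of Egr4 stood between 7.82% and 38.9% in control PND120 and between 0.511% and 29.7% in control PND65 sperm. A further 7 regions over Hid1, Cdr2l, Mrpl58 and Kctd2 on chromosome 10 changed by 6.12 to 12.9 points. Of all 4131 genes, 904 had at least 2 regions and 13 had at least 5.

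The 40 losses lay at higher control PND65 levels and were mostly long. Their median change was -10.5 points, with a median of 51.0% in control PND120 and 57.9% in control PND65 sperm, and 31 were longer than 1 kb (77.5%). Regions of high level were mostly long, whichever way they changed: 96.3% of the 563 regions at 30% or more were longer than 1 kb, against 27.4% of all regions. The lowest control PND65 level among the losses was 16.4%. The largest loss lay 53327 bp downstream of Col4a1, a basement-membrane collagen, with 11.7% in control PND120 and 43.4% in control PND65 sperm. Rab20, a small GTPase of vesicle traffic, had 26.2% in control PND120 and 46.8% in control PND65 sperm. Both were under 50% in control PND65 sperm, while Pls1 and Ccni stood above 75%. Pls1, the actin-bundling plastin 1, had 61.8% in control PND120 and 79.8% in control PND65 sperm. Ccni, cyclin I, had 74.4% in control PND120 and 90.9% in control PND65 sperm. The other losses among the 8 largest were in or beside Hipk3 (a homeodomain-interacting kinase), Baalc, LOC103693172 and RGD1561808, at -15.5 to -20.4 points. BDE-47 sperm was also lower at PND120 than at PND65 at 34 of the 40 regions (85%), by at least 5 points at 25 (62.5%). Over all 5327 regions these shares were 66.9% and 0.976%, and over the 563 regions at 30% or more they were 38.2% and 3.91%. Ccni was 1 of the exceptions, with 97.6% in BDE-47 PND120 and 97.4% in BDE-47 PND65 sperm. Of the 40 regions, 32 had no listed neighbour within 10 kb, against 51.9% of all regions.

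In 12 genes a gain and a loss were listed together. They include the patterning factors Pax2, Irx1, Foxb1 and Eomes, the helicase gene Blm and Col4a1. At Foxb1, a forkhead factor, 4 regions gained up to 10.2 points, and 1 of 98 bp, 3442 bp upstream, lost 10.8 points, with 5.61% in control PND120 and 16.4% in control PND65 sperm. At Pax2, needed for kidney and urogenital development, 1 region gained 8.79 points, and another had 23.7% in control PND120 and 33.3% in control PND65 sperm.

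Gene families, defined by symbol, covered 39.2% of all regions and differed little in the size of the change. Over the 17 families with at least 20 regions the median change ran from 8.45 points (solute carriers, 72 regions) to 9.99 points (chromatin and DNA methylation modifiers, 131 regions), beside 9.30 points over all. The share with a gain of at least 10 points ran from 26.4% for solute carriers to 49.6% for chromatin modifiers, beside 41%. Among chromatin modifiers all 131 regions gained, beside 99.2% of all listed regions. Of these genes Hmga2, an architectural factor, stood at 20.5% in control PND120 and 0.991% in control PND65 sperm. In the same family Uhrf1, which recruits the maintenance methyltransferase, stood at 19.1% in control PND120 and 0.603% in control PND65 sperm. Homeobox factors, which pattern the embryo, had 173 gains and 2 losses, a median of 9.92 points and 48.6% with at least 10 points. Hoxb9 led them at 19.1% in control PND120 and 0.357% in control PND65 sperm. Six6, an eye and pituitary factor, followed at 22.5% in control PND120 and 5.85% in control PND65 sperm. These leading regions lay under 10% at PND65. Of the family's 175 regions 113 (64.6%) were under 2%, beside 3001 of all 5327 listed regions. Other developmental factors had a median of 9.41 points over 248 regions, with Tbx3, a limb and mammary T-box factor, at 64.1% in control PND120 and 43.6% in control PND65 sperm.

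Wnt, Hedgehog, BMP, FGF and Notch genes had 111 gains and 1 loss and a median of 9.10 points, with the receptor Lgr5 at 18.4% in control PND120 and 0.310% in control PND65 sperm. Kinases and phosphatases had 202 gains and 2 losses, with 42.2% at 10 points or more, beside 41% of all listed regions. Ubiquitin ligases and deubiquitinases had 180 gains and 1 loss, with 46.4% at 10 points or more, beside the same 41%. Of these genes Trim33 stood at 17.6% in control PND120 and 0.181% in control PND65 sperm. Genes of spermatogenesis and sperm function had 21 regions, all gains, in a list where 99.2% of regions gained. Their median was 9.45 points, with 42.9% at 10 points or more, near the 41% of all listed regions. Among them Spata6, needed for the sperm connecting piece in mouse, stood at 13.2% in control PND120 and 0.192% in control PND65 sperm. Tssk6, a testis kinase, stood at 16.1% in control PND120 and 4.25% in control PND65 sperm. Of imprinted genes linked here to maternal germline methylation, 3 had a listed region. Whether these regions cover the sequence that carries that methylation was not tested. The region of Nnat, 8121 bp downstream of the gene, stood at 80.2% in control PND120 and 67.0% in control PND65 sperm. Trappc9 stood at 17.1% in control PND120 and 4.58% in control PND65 sperm, and Phlda2 at 20.2% in control PND120 and 9.72% in control PND65 sperm, both inside the gene. Of the paternally methylated genes looked for, 0 had a listed region.

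**Figure D5:**
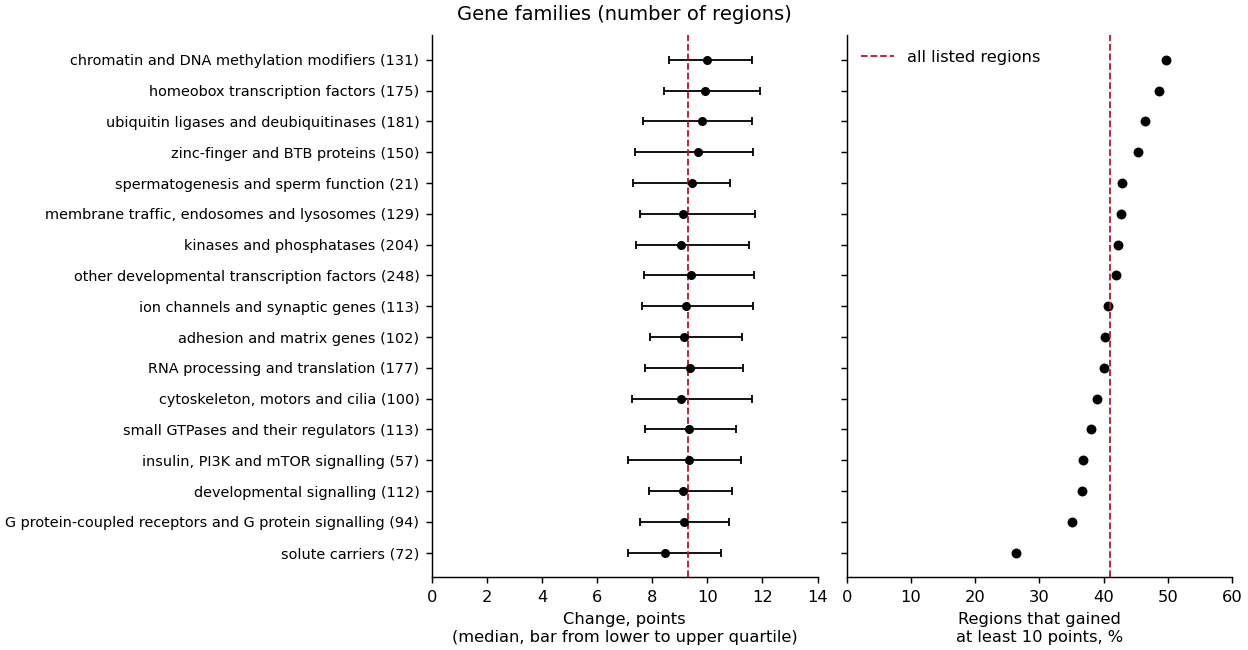
Left, median change in percentage points (control PND120 minus control PND65) with bars from the lower to the upper quartile for each gene family with at least 20 regions; right, percent of its regions that gained at least 10 points. Dashed lines give all regions, 9.30 points and 41%, and family values run from 26.4% to 49.6%.

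The families were also counted among the largest changes, with no test. The top 10% of all classes together held 535 regions (10.0%). Ion channel and synaptic genes had 17 of 113 regions there (15.0%), among them Clcn7, a lysosomal chloride transporter, at 21.1% in control PND120 and 1.54% in control PND65 sperm. G protein-coupled receptors and their partners had 12.8%, kinases and phosphatases 12.7%, and zinc-finger proteins 12.0%. Small GTPases and their regulators had 5 of 113 regions there (4.42%), developmental signalling genes 6 of 112 (5.36%) and spermatogenesis genes 0 of 21. Among regions with at least 5 CpGs the ion channel, receptor and zinc-finger shares were below the overall share, by a difference of -1.63 to -0.350 points. A gene of some family was named at 42.5% of the top regions under 2%, beside 41.6% of that class. At 10 to 30% it was 28.3% of the top beside 34.4% of the class, and at 30 to 70% 41.2% beside 32.3%.

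Genes of microRNAs, short RNAs that pair with messenger RNAs through the seed at bases 2 to 8, were named at 25 regions of 17 genes. All 25 gained, by 5.92 to 15.5 points, in a list where 99.2% of regions gained. The mature sequences below (RefSeq, GRCr8) belong to genes described here and show which of them share a seed. Capitals mark the seed. Among the 27 arms found, 1 seed was shared by 2 genes, that of let-7a and let-7i.
rno-miR-212-3p: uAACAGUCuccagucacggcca
rno-miR-183-5p: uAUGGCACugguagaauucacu
rno-miR-708-5p: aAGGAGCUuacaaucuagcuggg
rno-miR-760-3p: cGGCUCUGggucugugggga
rno-let-7a-5p: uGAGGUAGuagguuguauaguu
rno-let-7i-5p: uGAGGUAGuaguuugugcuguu

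Mir212 had the largest change of these genes, with 15.9% in control PND120 and 0.392% in control PND65 sperm in a 149 bp region 604 bp upstream. Mirlet7i stood at 12.8% in control PND120 and 0.852% in control PND65 sperm in a 72 bp region just downstream. Mirlet7a1 stood at 11.4% in control PND120 and 2.40% in control PND65 sperm over a region of 33393 bp. Mir183, Mir708, Mir760 and Mir124-3 had 3 regions each. Those of Mir183, a microRNA of sensory organs, lay 4525 to 6692 bp upstream and stood between 11.4% and 16.4% in control PND120 and between 0.355% and 8.89% in control PND65 sperm. Those of Mir708, which lay 35872 to 36972 bp upstream, stood between 9.93% and 18.5% in control PND120 and between 0.419% and 5.15% in control PND65 sperm. Those of Mir760 stood between 7.10% and 9.42% in control PND120 and between 0.257% and 0.774% in control PND65 sperm. DNA methylation near these genes was measured here and their RNA was not.

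At the other end, 11 regions changed by under 5 points in control sperm, 7 of them gains and 4 losses, and 99.8% of the list changed by 5 points or more. All 11 changed by 5.15 to 13.2 points in BDE-47 sperm, in either direction, so every listed region passed 5 points in at least 1 exposure group. That share follows how the list was made and is read as no result, and which comparison put a region on it is not given in the sources used here. Mef2a, a muscle transcription factor, gained 2.44 points, with 30.2% in control PND120 and 27.8% in control PND65 sperm, and BDE-47 sperm there was at 34.6% (PND120) and 47.8% (PND65). Just inside 5 points stood gains at Farsb (5.60% in control PND120 and 0.595% in control PND65 sperm), Actb and Pdlim4, and losses at LOC102556064, Gip and LOC685950 of -5.44 to -5.85 points. Outside it the nearest gain was at Axin2, a Wnt inhibitor, with 12.0% in control PND120 and 7.08% in control PND65 sperm. The nearest loss was at Dtx1, a Notch regulator, with 60.2% in control PND120 and 64.4% in control PND65 sperm.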

How the data were processed

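Sperm DNA from 24 rats, 6 in each of 4 groups, was assayed by RRBS. The authors aligned to rn6 using Bismark 0.16.1 (Bowtie2 2.2.9), took out PCR duplicates by nudup 2.2, used CpGs read at least 10 times, called regions in MethPipe and assigned genes by closest-features 2.4.25, per the series' design text. The limits for listing were a q-value under 0.05 and 3 CpGs or more, per the file headers. The authors deposited the level of each group as a fraction from 0 to 1, multiplied here by 100, and age differences in percentage points, which equal 100 times the difference of the fractions (largest gap 1.07e-14). How the 6 animals of a group were pooled is not given in the sources used here. Of the columns used, 0 hold single animals, so depth per library is unknown and no p-value or SD is given. Whether region starts count from 0 or 1 is not stated, and coordinates are printed as deposited.

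Medians, quartiles, counts and Spearman rank correlations were computed over regions with pandas 2.3.3 and scipy 1.17.1 in Python 3.11.15, and the code was tested on simulated data. A gene body is a distance of 0. Neighbours were ordered along a chromosome, and clusters join gaps of at most 10 kb. The text names, per level class, the 8 largest gains with a symbol other than LOC or RGD, the 8 largest losses, the 5 clusters with most regions with their ties, the 3 genes with most regions, up to 3 genes per family and the regions nearest 5 points; 1 gene that this rule names is not reported here. Regions, classes and family lists were chosen with earlier results of these data known. The symbol pattern of the cytoskeleton family was corrected after its values were seen, because it had caught chaperone genes. Genes with a gain and a loss, microRNA genes and the promoters printed were chosen after values were seen. Of 4131 genes, 3859 matched a RefSeq name. Alternatives were minimum CpGs, maximum length, minimum change, other level classes, other distance and cluster limits and a top 25%.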

Additional observations from a re-analysis of the deposited data

How the results depend on the processing

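Of 161 comparisons of a result with an alternative, 99 stayed within the interval or limit set for that result, 62 moved beyond it, and 7 of the 62 were shares of single families in the top of their class. No median changed sign. The rank correlation of change with length, 0.033 over all regions, was negative in 2 alternatives (-0.007 with at least 5 CpGs), and the difference between a family's share in the top and the overall share changed sign in 16; for solute carriers it was 1.07 points over all regions and -11.2 points in the top 25% of a class. No paired analysis was possible because the lists hold 1 value per group and no animal, and for the same reason leaving out single animals was not run. Keeping regions with at least 5 CpGs gave 98.9% gains, 30.1% with at least 10 points, a median change of 8.56 points, class medians of 8.96, 8.73 and 8.21 points (under 2%, 2 to 10%, 10 to 30%), 7.69 points under 100 bp, 8.54 in gene bodies, 8.67 near genes and 7.78 at 10 kb or more, with 26.7% of regions in clusters and 4 families (9 before) above the overall share of the top. With at least 10 CpGs these were 98.8% gains, 17.9% with at least 10 points and a median of 7.76 points; regions of 100 kb or more had 7.36 points, and the rank correlation with length was -0.199. Regions of at most 1 kb gave 99.8% gains, -12.3 points for losses, 12.3 points at 30 to 70%, 9.40 in gene bodies, 2.32 points between neighbours and 38.1% in clusters. A change of at least 7 points gave 49.1% with at least 10 points, a median of 9.95 points, class medians of 10.0, 9.95, 9.98, 9.48 and 8.28 points with a rank correlation of -0.045, 10.7 points at 3 CpGs and 8.32 at 20 or more, and 9.59 points both under 100 bp and at 100 kb or more. It also gave 9.95, 9.89 and 9.68 points in gene bodies, near genes and at 10 kb or more, 2.24 points between neighbours and 43.1% in clusters. Classing by the mean of both control levels gave 9.64 points at 10 to 30% and 8.35 at 70% or more. Classing by BDE-47 PND65 gave 11.3 under 2%, 10.3 at 10 to 30% and 8.17 at 30 to 70%. As a percent of the unmethylated share the medians were 9.82%, 10.5%, 14.6% and 29.5% from 2% upward. Within regions under 10% the medians were 8.82 points at 20 or more CpGs, 10.2 at 100 kb or more and 9.54 in gene bodies, and the rank correlation with length was 0.221. Cluster gaps of 1 kb and 100 kb put 40.6% and 69.9% of regions in clusters. The cause of these shifts was not tested. The depth behind each level is unknown, so no limit of detection can be given.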
